A study of Mus musculus with 4 samples.

Results

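The genes described here belong to the glutathione and thioredoxin systems of the mouse testis. They were chosen by symbol: names beginning with Gst and a small letter, with Gpx or Prdx and a digit, or with Txn, leaving out Txnip and pseudogenes with a ps suffix. This gave 52 of the 25265 genes of the deposited table, all annotated as protein-coding, and 50 of them passed the filter on low counts and were tested. RNA of whole testes from C57BL/6 mice at postnatal day 56 was depleted of ribosomal RNA and sequenced from directional libraries. The groups were 2 libraries labelled control and 2 labelled Ythdf2-vKO, and the series title describes the latter as germ cell-specific mutants of Ythdf2, an m6A reader. The exact alleles, the driver of the deletion, the controls' genotype and whether each library came from its own animal are not given in the sources used here. P-values therefore measure the spread between these libraries, which may be technical.

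Glutathione transferases join the tripeptide glutathione to reactive compounds, glutathione peroxidases use it to reduce peroxides, and peroxiredoxins do the same with electrons from thioredoxin. Thioredoxin is itself recharged by thioredoxin reductases. Testes keep specialised forms: Gpx4 reduces lipid hydroperoxides and becomes a structural protein of the sperm midpiece, Txnrd3 joins a thioredoxin reductase to a glutaredoxin domain, Txndc2 and Txndc8 are thioredoxins of spermatids, and Gstm5 is a mu-class transferase of testis and brain. These 5 testis members are set beside 8 counterparts of the same classes that are widely expressed in somatic tissues: Gpx1, Gpx3, Txnrd1, Txnrd2, Txn1, Txn2, Gstm1 and Gstm2.

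The catalytic codons show the chemistry that defines the families. A UGA codon, normally a stop, is read as selenocysteine in some of the peroxidases and in the reductases. A search of the longest GENCODE M21 coding sequence of each of the 52 members found an in-frame TGA in 6 of them, and the annotation marks selenocysteine in the same 6. For the peroxidases, the codon is shown with 12 bases on either side, and capitals mark the TGA or the codon aligned to it.

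Gpx4: gtggcctcgcaaTGAggcaaaactgac
Gpx1: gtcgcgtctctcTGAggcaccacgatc
Gpx3: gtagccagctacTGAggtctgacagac
Gpx6: gtggcatccttcTGTggcctgacagct
Gpx7: gtagctagcgaaTGTggcttcacagac
Gpx8: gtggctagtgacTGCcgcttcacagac

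Gpx6, Gpx7 and Gpx8 have a cysteine codon, TGT or TGC, in that place. In the reductases the TGA is the next to last coding codon, at position 614 in Txnrd3, 612 in Txnrd1 and 526 in Txnrd2, so that only 1 more codon and the stop codon follow.

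Txnrd3: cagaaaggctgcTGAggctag
Txnrd1: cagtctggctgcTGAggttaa
Txnrd2: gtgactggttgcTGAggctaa

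The thioredoxin active site consists of 5 codons around a pair of cysteines. Capitals mark these codons in Txndc2 and Txndc8, the spermatid thioredoxins, and in the somatic Txn1 and Txn2.

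Txndc2: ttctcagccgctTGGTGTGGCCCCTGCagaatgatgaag
Txndc8: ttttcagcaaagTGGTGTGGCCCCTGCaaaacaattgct
Txn1: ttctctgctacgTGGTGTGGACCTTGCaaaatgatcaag
Txn2: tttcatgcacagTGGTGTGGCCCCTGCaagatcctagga

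Txndc2, Txndc8 and Txn2 have the same letters in these codons, and Txn1 differs. The coding sequence of Txndc2 is much longer than that of Txn1, with 550 codons against 105. It also holds a repeated unit of 45 bases, printed below, and the other thioredoxins were not searched for repeats. Identical copies of one form of the unit were found 4 times.

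Txndc2 repeat: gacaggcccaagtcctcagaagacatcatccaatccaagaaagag

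Whole-gene counts of the targeted gene were not lower in the libraries labelled vKO. Ythdf2 had 1193 and 1604 counts in the controls, against 1774 and 1807 under the vKO label. The deleted part of the gene is not given in the sources used here, and a deletion of some exons can leave a count over the whole gene unchanged or higher, so that these counts do not check the labels. Every direction below is that of libraries by label. Total gene counts per library ranged from 24862518 to 29561182. Markers of elongating spermatids summed to between 9991 and 12865 CPM (counts of a gene scaled to a common library size) in a library, and epididymal markers to between 5.68 and 8.17 CPM, nearly all from Rnase10. Library composition differed beyond the groups. Control replicate 1 was the lowest of the 4 libraries in 23 of the 50 members tested and the highest in 10, against 26.7% and 26.3% of all genes.

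No member was called at an adjusted p under 0.05 in the edgeR quasi-likelihood fit, with p-values adjusted by Benjamini-Hochberg over all 21132 genes tested, against a background of 0.393% of all genes called. At an unadjusted p under 0.05 there were 11 members, 7 with higher and 4 with lower values in the libraries labelled vKO, against 7.65% and 6.47% of all genes (14.1% in both directions together). A DESeq2 Wald test on the same counts called 3 of the 47 members to which it gave an adjusted p, against a background of 1.32% (0.833% higher and 0.486% lower). These were Gstp1 and Gstm7, higher, and Txndc2, lower. The authors' deposited table called the same 3, but it holds the same test on the same counts. The largest gap between its log2 fold changes and the recomputed values was 3.7e-08. Its calls are therefore not a separate source. Over the 50 members the median log2 fold change was 0.00, against 0.00 for all genes tested, with 25 values above 0 and 25 below, where 50.3% of all genes were above 0. The groups did not overlap in 14 members with vKO above and 15 with vKO below, against 22.7% and 22.6% of all genes.

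**Figure D1:**
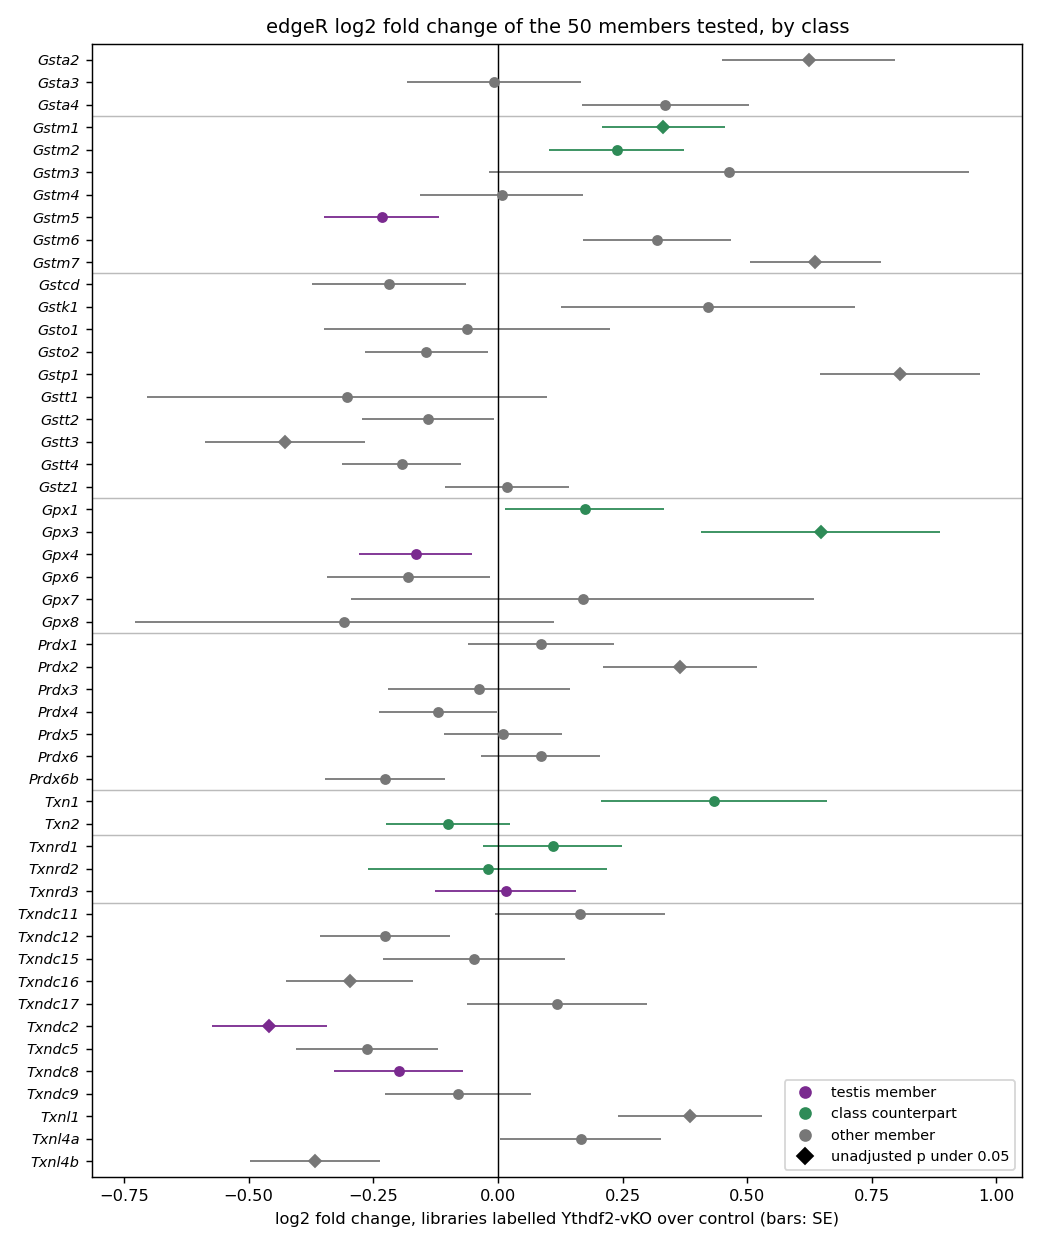
Log2 fold change of the 50 members tested (horizontal axis, libraries labelled Ythdf2-vKO over control, bars giving the SE from edgeR), grouped by class, with testis members in purple, class counterparts in green and diamonds for an unadjusted p under 0.05. Values run from -0.46 for Txndc2 to 0.81 for Gstp1.

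Txndc2, a thioredoxin of the sperm tail sheath, had the lowest log2 fold change of the members tested. In GRCm38 it spans 65637507 to 65642168 of chromosome 17 (minus strand). Its level was 654 and 679 CPM in the control libraries and 471 and 498 CPM in the pair labelled vKO. Both control libraries lay well above both vKO libraries. The means were 666 ± 17.2 and 485 ± 19.0 CPM (SD, n = 2 each), a log2 fold change of -0.46 (SE 0.12) with an unadjusted p of 0.00157 and an adjusted p of 0.112 in edgeR. By the DESeq2 Wald test, which is also the test of the authors' deposited table, the adjusted p was 0.0416.

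The other spermatid thioredoxin, Txndc8 (chromosome 4, 57984027 to 58009124), had 80.2 and 88.9 CPM in the controls as against 69.5 and 77.8 CPM in the vKO pair. The ranges did not overlap but nearly touched. Its log2 fold change was -0.20 (SE 0.13, edgeR adjusted p 0.536). Somatic Txn1, the cytosolic thioredoxin, had 6.67 and 11.1 CPM in the control pair, against 12.6 and 11.5 CPM under the vKO label. Control replicate 1 stood low and the other 3 libraries were close together. The log2 fold change of Txn1 was 0.43 (SE 0.23, edgeR adjusted p 0.426), and it was 0.12 without control replicate 1 and 0.85 without control replicate 2, where it was called (adjusted p 0.0109). Txn2, the mitochondrial thioredoxin, had 77.7 and 82.9 CPM in the control libraries and 73.3 and 76.5 CPM in the pair labelled vKO, a log2 fold change of -0.10 (SE 0.12, edgeR adjusted p 0.782).

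Gpx4 (chromosome 10, 80047166 to 80056439) was one of the most abundant members, with 1069 and 1074 CPM in the controls as against 933 and 979 CPM in the vKO pair. Its control libraries nearly coincided and both vKO libraries lay below them. The log2 fold change was -0.16 (SE 0.11, edgeR adjusted p 0.565), and -0.38 with an offset for GC content. Of the 52 members Gpx4 has the highest GC content (60.2%). Counts over the whole gene do not separate its mitochondrial, cytosolic and sperm nuclear forms, which come from alternative starts. The pseudogene Gpx4-ps2 is 99.7% identical to Gpx4 over 733 nt and had 92 and 121 counts in the control pair, against 36 and 86 under the vKO label, small beside the 24970 to 32211 counts of Gpx4.

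Among the other peroxidases, Gpx3, a secreted form, had 4.24 and 5.44 CPM in the control libraries and 6.31 and 8.90 CPM in the pair labelled vKO. The groups did not overlap, and the vKO libraries differed more from each other than the controls did. The log2 fold change of Gpx3 was 0.65 (SE 0.24), with an unadjusted p of 0.0181 and an adjusted p of 0.247 in edgeR. It was 0.38 without vKO replicate 2 and 0.87 without vKO replicate 1. Gpx1, the widespread cytosolic form, had 18.7 and 23.9 CPM in the controls as against 24.3 and 23.9 CPM in the vKO pair, overlapping between groups, with a log2 fold change of 0.17 (SE 0.16, edgeR adjusted p 0.689). That value was 0.0016 without control replicate 1, 0.37 without control replicate 2 and 0.0059 with the GC offset. The cysteine forms had log2 fold changes of -0.18 for Gpx6, 0.17 for Gpx7 and -0.31 for Gpx8, none at an unadjusted p under 0.05. Gpx7 and Gpx8 rested on 16 to 44 counts in a library, so changes of this size were not detectable at this depth.

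Txnrd3 (chromosome 6, 89643988 to 89675529) had 547 and 415 CPM in the control pair, against 509 and 463 CPM under the vKO label. The vKO libraries lay between the control libraries, and the log2 fold change was 0.02 (SE 0.14, edgeR adjusted p 0.978). Its sign followed the libraries used: it was 0.22 without control replicate 1 and -0.17 without control replicate 2. Txnrd1, the cytosolic reductase, had 36.6 and 31.9 CPM in the control libraries and 38.2 and 35.6 CPM in the pair labelled vKO. Txnrd2, the mitochondrial reductase, had 4.58 and 4.0 CPM in the controls as against 3.96 and 4.49 CPM in the vKO pair. Neither separated the groups, with log2 fold changes of 0.11 (SE 0.14) and -0.02 (SE 0.24). The gene Eid3 lies within Txnrd1 on the same strand with 11250 to 15060 counts in a library, and how reads were divided between the pair is not given in the sources used here, so the value of Txnrd1 is uncertain.

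The 6 members with an in-frame TGA did not share a direction. Their median log2 fold change was 0.06, with 4 above 0 and 2 below, against a median of 0.00 for all genes tested. Of the 11 genes of the selenoprotein synthesis list 0 were called by edgeR (0.393% of all genes were). An unadjusted p under 0.05 was found for 2 of them, against 14.1% of all genes. Sephs2, which makes the selenium donor, had 220 and 170 CPM in the control pair, against 278 and 265 CPM under the vKO label, a log2 fold change of 0.48 (SE 0.14, edgeR adjusted p 0.157). Selenop, the selenium carrier protein, had 38.0 and 52.3 CPM in the control libraries and 76.4 and 51.2 CPM in the pair labelled vKO, with overlapping groups and a log2 fold change of 0.50 (SE 0.21, edgeR adjusted p 0.318).

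**Figure D2:**
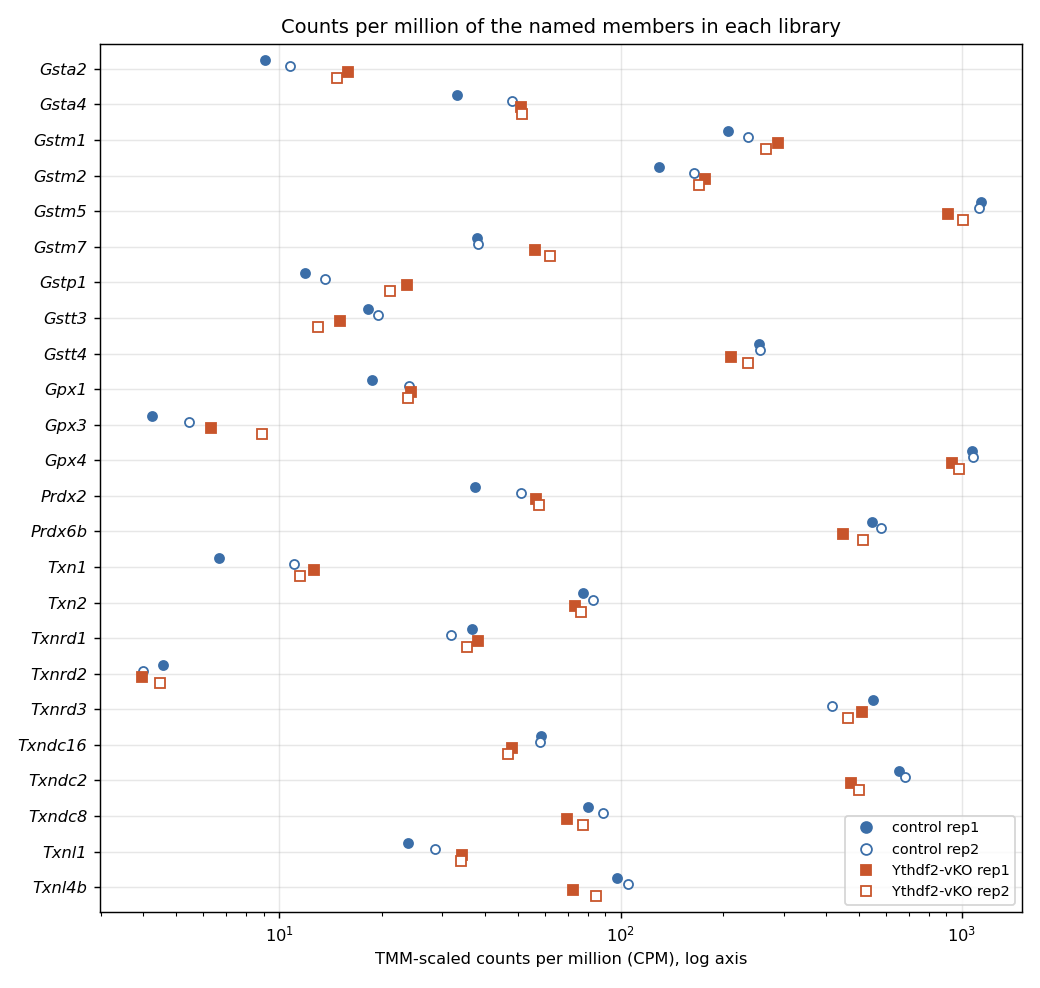
TMM-scaled CPM of the 24 tested members named by the rule (horizontal log axis), with circles for control libraries and squares for libraries labelled Ythdf2-vKO. Gstp1 and Gstm7 lie to the right and Txndc2 to the left in both vKO libraries, whereas those of Txnrd3 (509 and 463 CPM) lie between the control libraries (547 and 415 CPM).

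Gstp1, the pi-class transferase, had the highest log2 fold change of the members tested. It spans 4035407 to 4037985 of chromosome 19 (minus strand), and had 278 and 409 counts in the controls as against 634 and 568 in the vKO pair, or 11.9 and 13.6 CPM against 23.7 and 21.1 CPM. Both vKO libraries lay far above both control libraries. The means were 12.8 ± 1.24 and 22.4 ± 1.86 CPM (SD, n = 2 each), a 1.75-fold difference and a log2 fold change of 0.81 (SE 0.16), with an unadjusted p of 0.000241 and an adjusted p of 0.0524 in edgeR. The DESeq2 Wald test gave an adjusted p of 0.0100.

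The pi-class locus is a tandem array, so the sequence copies of Gstp1 bear on this value. Gstp2, beside it on chromosome 19, is 98.2% identical to Gstp1 over 707 nt, and the pseudogene Gstp-ps is 97.6% identical over 631 nt. Gstp2 had 4 and 3 counts in the control pair, against 3 and 3 under the vKO label, and Gstp-ps had 68 and 98 against 100 and 116. Gstp3 had 1 and 7 counts in the controls as against 0 and 2 in the vKO pair. Gstp2 and Gstp3 were not tested, and no fold is given for counts this close to the floor of 3. With the counts of Gstp2 and Gstp-ps added to Gstp1, its log2 fold change was 0.73 (edgeR adjusted p 0.0643).

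The mu class also lies in a tandem array, on chromosome 3, and neighbours in it had log2 fold changes of opposite sign. Gstm5, at its start (plus strand, 107895821 to 107898686), had 1132 and 1121 CPM in the controls as against 909 and 1008 CPM in the vKO pair. Its next neighbour Gstm7 (minus strand, 107926334 to 107931817) had 37.9 and 38.3 CPM in the control pair, against 56.3 and 62.2 CPM under the vKO label. The groups did not overlap in either gene, with vKO below for Gstm5 and above for Gstm7. The log2 fold changes were -0.23 (SE 0.12, adjusted p 0.395) for Gstm5 and 0.64 (SE 0.13, unadjusted p 0.000334, adjusted p 0.0604) for Gstm7 in edgeR. The DESeq2 Wald test gave Gstm7 an adjusted p of 0.0101. Within a library, Gstm5 had 29.8 and 29.3 counts for each count of Gstm7 in the controls, against 16.1 and 16.2 under the vKO label, a pair chosen after its values were seen.

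Beyond Gstm7 follow Gstm6, Gstm3, Gstm2, Gstm1 and Gstm4. Gstm1, a major transferase of liver and other somatic tissues, had 206 and 236 CPM in the control libraries and 289 and 267 CPM in the pair labelled vKO, with no overlap and a log2 fold change of 0.33 (SE 0.12, unadjusted p 0.0188, adjusted p 0.250 in edgeR). Gstm2 had 130 and 164 CPM in the controls as against 177 and 170 CPM in the vKO pair, a log2 fold change of 0.24 (SE 0.14, edgeR adjusted p 0.466). The remaining 3 had log2 fold changes of 0.32 for Gstm6, 0.46 for Gstm3 and 0.01 for Gstm4. Gstm3 rested on 14 to 27 counts in a library (SE 0.48), and the groups overlapped for Gstm4. In all, 6 of the 7 mu genes had values above 0 (median 0.32), against 50.3% of all genes, and the exception was Gstm5. Without control replicate 1 the median was 0.13. Gstm2 and Gstm6 are 90.2% identical over 368 nt, and Gstm1 has a pseudogene copy 97.9% identical over 657 nt. A pseudogene copy of Gstm3, Gm8834, is 97.9% identical to it over 567 nt.

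In the alpha class, Gsta2 had 9.11 and 10.8 CPM in the control pair, against 15.9 and 14.8 CPM under the vKO label. Both vKO libraries lay above the control libraries, with a log2 fold change of 0.62 (SE 0.17, unadjusted p 0.00329, adjusted p 0.144 in edgeR). Gsta1 is 97.2% identical to Gsta2 over the whole 870 nt of its longest transcript. Gm3776 is 97.2% identical over 869 nt and Gm10639 98.3% over 802 nt. None of these copies is among the deposited genes, so their reads and those of Gsta2 may not be separable. Gsta4, which acts on products of lipid peroxidation, had 33.1 and 48.1 CPM in the control libraries and 51.2 and 51.4 CPM in the pair labelled vKO, a log2 fold change of 0.34 (SE 0.17, edgeR adjusted p 0.398). Control replicate 1 again stood apart from the other 3 libraries, and without it the median of the 3 alpha genes was 0.09 in place of 0.34.

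Of the 10 transferases tested outside the alpha and mu classes, 3 had log2 fold changes above 0 and 7 below. Gstt3 had 18.2 and 19.5 CPM in the controls as against 15.1 and 13.0 CPM in the vKO pair, with no overlap and a log2 fold change of -0.43 (SE 0.16, unadjusted p 0.0196, adjusted p 0.253 in edgeR). The protein-coding gene Gm20441 overlaps Gstt3 on the same strand over 6840 nt and is not among the deposited genes. How shared reads were counted is not given, so the value of Gstt3 is uncertain. Gstt4, the theta gene with the highest level per length, had 254 and 256 CPM in the control pair, against 210 and 236 CPM under the vKO label, a log2 fold change of -0.19 (SE 0.12, edgeR adjusted p 0.516). Omega-class Gsto2, which also reduces dehydroascorbate, had a log2 fold change of -0.14. Gsto1 and Gsto2 overlap Cfap43 on the opposite strand, which had 9296 to 12706 counts in a library, and whether the counting used strand is not given in the sources used here.

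Promoters are shown for the 3 members that the DESeq2 Wald test called, Gstp1 and Gstm7 on the higher and Txndc2 on the lower side. They are RefSeq promoters of GRCm38.p6, 250 bases before to 50 after a start, taken for the listed start closest to the M21 gene start, and all 3 lie on the minus strand: chr19:4037863-4038162 for Gstp1, chr3:107931768-107932067 for Gstm7 and chr17:65642155-65642454 for Txndc2. Capitals mark any match, on either strand, to TGACNNNGC, the core of the antioxidant response element bound by NRF2, to TGANTCA, the AP-1 element, or to TGACGTCA, the cAMP response element.

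Gstp1: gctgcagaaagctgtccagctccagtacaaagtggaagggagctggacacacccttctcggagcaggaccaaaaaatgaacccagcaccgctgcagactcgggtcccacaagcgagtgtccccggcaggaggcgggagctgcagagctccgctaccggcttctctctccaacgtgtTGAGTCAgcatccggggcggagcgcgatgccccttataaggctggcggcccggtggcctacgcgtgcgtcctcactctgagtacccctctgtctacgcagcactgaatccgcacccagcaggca
Gstm7: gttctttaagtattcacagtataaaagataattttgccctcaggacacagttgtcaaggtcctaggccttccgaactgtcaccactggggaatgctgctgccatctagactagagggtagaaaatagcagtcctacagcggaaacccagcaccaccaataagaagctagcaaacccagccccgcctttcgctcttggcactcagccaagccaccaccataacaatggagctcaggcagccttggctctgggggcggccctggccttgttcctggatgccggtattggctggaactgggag
Txndc2: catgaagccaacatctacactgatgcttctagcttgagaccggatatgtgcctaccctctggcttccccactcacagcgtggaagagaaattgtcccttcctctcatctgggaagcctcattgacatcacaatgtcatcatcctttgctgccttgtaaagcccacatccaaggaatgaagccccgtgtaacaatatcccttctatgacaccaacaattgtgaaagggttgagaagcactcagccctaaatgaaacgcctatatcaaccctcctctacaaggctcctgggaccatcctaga

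Gstp1 holds 1 match, to TGANTCA, and these windows of Gstm7 and Txndc2 hold none, although both genes have a second listed start whose window holds TGACNNNGC. TGANTCA is its own reverse complement, and the elements can overlap, because some sequences match TGACNNNGC and TGANTCA alike. RefSeq promoters were found for 46 of the 52 members. Of their 64 windows, 8 held TGACNNNGC, or 12.5%, against 12.4% of all 32851 windows. TGANTCA was in 6.25% of the members' windows and 7.81% of all, and TGACGTCA in 1.56% and 1.79%. A match describes the letters of a window and not a bound site.

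Other NRF2 genes were taken from a list of 10 regulators and targets. Of these, 7 had log2 fold changes above 0 and 3 below, with a median of 0.17, where 50.3% of all genes were above 0. The groups did not overlap in 5 with vKO above and 1 with vKO below, against 22.7% and 22.6% of all genes. By edgeR 0 were called (0.393% of all genes were), and 1 had an unadjusted p under 0.05, against 14.1% of all genes. That gene was Hmox1, the inducible heme oxygenase, with 8.0 and 9.81 CPM in the control libraries and 13.8 and 12.6 CPM in the pair labelled vKO, no overlap and a log2 fold change of 0.56 (SE 0.18, edgeR adjusted p 0.198). Nqo1, a textbook NRF2 target, had 1.45 and 1.0 CPM in the controls as against 1.38 and 1.19 CPM in the vKO pair. Its groups overlapped, and it rested on only 30 to 37 counts in a library (log2 fold change 0.08, SE 0.40). Gclc and Gclm, the subunits of the enzyme that starts glutathione synthesis, had log2 fold changes of -0.14 (SE 0.15) and 0.27 (SE 0.15).

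The genes that supply and recycle glutathione were measured in 14 of 15 cases. None was called by edgeR, 0 had an unadjusted p under 0.05, and the median log2 fold change was -0.02. Of 5 membrane transferases and glyoxalases 0 were called and 1 had an unadjusted p under 0.05, Mgst2, with a log2 fold change of 0.48 (SE 0.21, edgeR adjusted p 0.325). Of 8 superoxide dismutases, catalase and methionine sulfoxide reductases 0 were called and 2 had an unadjusted p under 0.05, in opposite directions. These were the extracellular dismutase Sod3, at a log2 fold change of 0.47 (SE 0.17, edgeR adjusted p 0.251), and the methionine sulfoxide reductase Msrb3, at -0.43 (SE 0.17, edgeR adjusted p 0.287). Of 11 glutaredoxins and further thioredoxin-fold genes 0 were called and 1 had an unadjusted p under 0.05, the thioredoxin inhibitor Txnip, with a log2 fold change of 0.30 (SE 0.13, edgeR adjusted p 0.340). At an unadjusted p under 0.05 these shares compare with 14.1% of all genes.

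None of the 7 peroxiredoxins was called by edgeR. Their log2 fold changes were above 0 in 4 and below in 3, and 1 had an unadjusted p under 0.05, against 14.1% of all genes. Prdx6b, which had the highest level per length among them, had 547 and 578 CPM in the control pair, against 448 and 514 CPM under the vKO label, a log2 fold change of -0.23 (SE 0.12, edgeR adjusted p 0.433). Its paralog Prdx6, an enzyme with both peroxidase and phospholipase activity, had 125 and 123 CPM in the control libraries and 127 and 136 CPM in the pair labelled vKO, a log2 fold change of 0.09. Prdx4, the peroxiredoxin of the endoplasmic reticulum, had a log2 fold change of -0.12.

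Prdx2, a cytosolic form abundant in red blood cells, had 37.6 and 51.0 CPM in the controls as against 56.6 and 57.6 CPM in the vKO pair, a log2 fold change of 0.37 (SE 0.15, unadjusted p 0.0342, adjusted p 0.310 in edgeR). Erythrocyte markers had values in the same direction. All 4 tested of the 5 had log2 fold changes above 0, 3 of them at an unadjusted p under 0.05 (7.65% of all genes on the higher side). The list summed to 26.8 and 32.5 CPM in the control pair, against 42.2 and 39.3 CPM under the vKO label. Their part in the value of Prdx2 was not tested. The log2 fold change of Prdx2 came to 0.16 when control replicate 1 was left out and to 0.61, with a call, when control replicate 2 was. Prdx2 also overlaps a pair of genes on the opposite strand. Rnaseh2a (181 nt) had 13471 to 18622 counts in a library and a log2 fold change of -0.21 (SE 0.12), and Junb (351 nt) had 148 to 223 counts and a log2 fold change of 0.54 (SE 0.21).

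In the remaining Txndc and Txnl group, names are shared more than functions. Txnl4a and the related Txnl4b are linked to the spliceosome, and Txnl1 associates with the proteasome. Txnl4b had 97.8 and 105 CPM in the control libraries and 72.6 and 84.9 CPM in the pair labelled vKO, with no overlap and a log2 fold change of -0.37 (SE 0.13, unadjusted p 0.0146, adjusted p 0.230 in edgeR). Txndc16, an endoplasmic reticulum protein, had 58.5 and 58.1 CPM in the controls as against 48.1 and 46.8 CPM in the vKO pair, a log2 fold change of -0.30 (SE 0.13, unadjusted p 0.0363, adjusted p 0.314 in edgeR). Txnl1 went the other way, with 23.8 and 28.5 CPM in the control pair, against 34.3 and 34.2 CPM under the vKO label, a log2 fold change of 0.39 (SE 0.14, unadjusted p 0.0192, adjusted p 0.251 in edgeR). The 26 members outside the naming rule, of which some are given above to complete a class or an array, had log2 fold changes from -0.31 to 0.46 and adjusted p values of at least 0.360 in edgeR.

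The levels of the members differed far more than the groups did. Per kilobase of exon, Gstm5 (816 CPM per kb, mean of 4 libraries) and Gpx4 (588) were highest, followed by Txndc2 (290), Gstt4 (242), Prdx6b (181), Txnrd3 (170) and Gstm1 (169). The order of the first pair rests on the length used: over the longest transcript Gpx4 had 1019 and Gstm5 963 CPM per kb. The levels of Prdx6b, Txnrd3 and Gstm1 were closer to each other than the replicates of Txnrd3. Among the counterparts, Gstm2 had 95.4, Txn2 18.4, Gpx1 15.8, Txn1 9.96, Txnrd1 5.02, Gpx3 3.43 and Txnrd2 0.967 CPM per kb. The 52 members took 0.593% and 0.647% of all counts in the controls, against 0.584% and 0.612% under the vKO label. The 5 testis members made up 55.2% and 52.9% of that in the controls, against 50.4% and 50.8% under the vKO label.

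**Figure D3:**
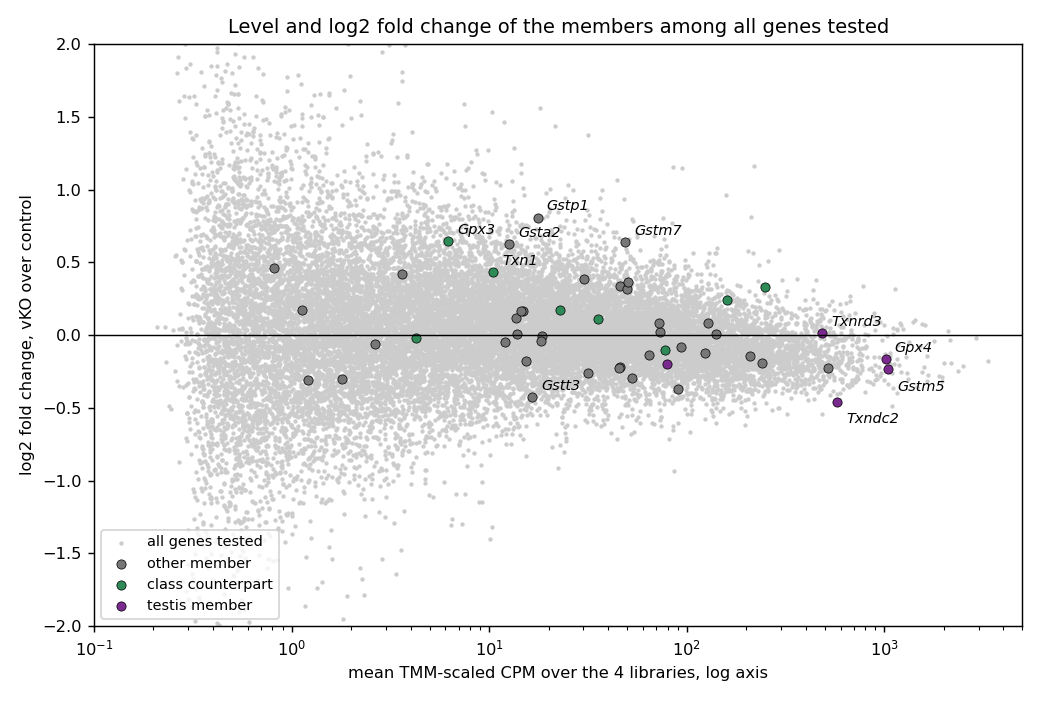
Mean TMM-scaled CPM over the 4 libraries (horizontal log axis) against log2 fold change, libraries labelled Ythdf2-vKO over control (vertical axis, values beyond 2 in either direction not shown), for all genes tested in grey and the members in colour. Txndc2, Gstm5 and Gpx4 lie at high levels below 0, where most genes of that level lie, and Gstp1 and Gstm7 lie above 0 at lower levels.

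Of the 5 testis members, 0 were called by edgeR (background 0.393%), 1 had an unadjusted p under 0.05, 4 had a log2 fold change below 0, and the same 4 had groups that did not overlap. Their median was -0.20, with a range from -0.46 to 0.02, against a median of 0.00 for all genes. Of all genes, 6.47% had an unadjusted p under 0.05 with lower values, 49.7% were below 0 and 22.6% had vKO below without overlap. Most genes of high level had log2 fold changes below 0, as measured at a single cut on level. Among the 1251 genes with at least 58.4 CPM per kb, which is the level of the twelfth highest member, 75.1% had a log2 fold change below 0 and 48.4% had groups that did not overlap with vKO below, and their median was -0.12. Of the 8 counterparts, 0 were called, 2 had an unadjusted p under 0.05, 6 had a log2 fold change above 0 and 4 had both vKO libraries above both control libraries. Their median was 0.21, and 0.09 without control replicate 1. Of all genes, 7.65% had an unadjusted p under 0.05 with higher values, 50.3% were above 0 and 22.7% had vKO above without overlap. The 5 and 8 genes were fixed with results of these libraries known, so that the direction of either list is not independent evidence.

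Ratios within a library do not depend on how libraries are scaled. Gpx4 had 57.2 and 44.9 counts for each count of Gpx1 in the control pair as against 38.4 and 41.0 in the vKO pair. Txndc2 had 8.42 and 8.18 counts for each count of Txn2 in the control pair, against 6.43 and 6.51 under the vKO label. Gstm5 had 5.50 and 4.75 counts for each count of Gstm1 in the controls, against 3.14 and 3.78 under the vKO label. In each of these 3 pairs both vKO libraries lay below both control libraries. The same held for Gpx4 over Gpx3, Gstm5 over Gstm2, Txndc2 over Txn1 and Txndc8 over Txn1. It held narrowly for Txndc8 over Txn2, at 1.03 and 1.07 in the controls against 0.948 and 1.02 under the vKO label. It did not hold for Txnrd3, which had 15 and 13.0 counts for each count of Txnrd1 in the control pair as against 13.3 and 13.0 in the vKO pair, and which also overlapped between groups over Txnrd2. A two-sided exact permutation test of 2 libraries against 2 cannot give a p below 0.333, so none of these ratios can pass a threshold on its own, and ratios that share a gene are not independent. The share of other gene pairs with ratios that separate the groups was not computed. Among genes of at least 58.4 CPM per kb, which include all 5 testis members, 48.4% had vKO below without overlap. The pairs also come from lists fixed with results of these libraries known, so the number of separating pairs is not independent evidence.

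**Figure D4:**
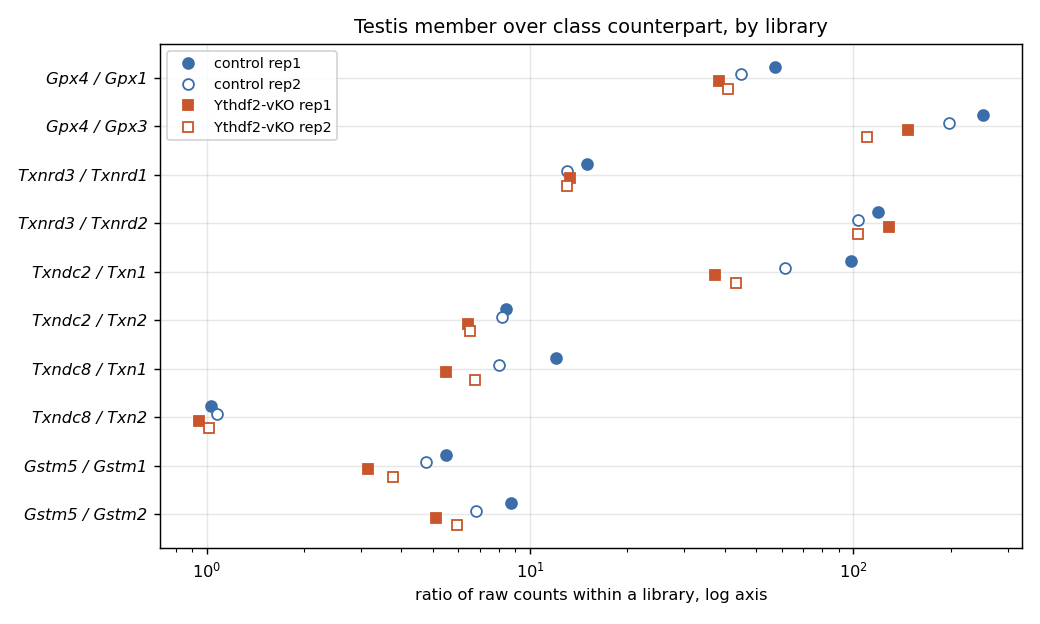
Ratio of the raw count of a testis member to that of a class counterpart within each library (horizontal log axis) for 10 pairs, with circles for control and squares for libraries labelled Ythdf2-vKO. The squares lie left of the circles in 8 pairs and overlap them in the pairs with Txnrd3. The pairs come from lists fixed with results of these libraries known.

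Markers of cell types differed between the same libraries. In whole tissue, fewer cells of a type and less RNA per cell cannot be told apart. All 11 Sertoli cell markers had log2 fold changes above 0, 8 of them at an unadjusted p under 0.05 and 1, Wt1, called by edgeR at an adjusted p of 0.0418, and they summed to 1116 and 1166 CPM in the control libraries and 1588 and 1408 CPM in the pair labelled vKO. Of 8 Leydig cell markers 7 were above 0 and 4 had an unadjusted p under 0.05, with sums of 301 and 365 CPM in the controls as against 478 and 357 CPM in the vKO pair. Of 10 elongating spermatid markers 9 were below 0 and 4 had an unadjusted p under 0.05, with sums of 12865 and 10536 CPM in the control pair, against 9991 and 10291 CPM under the vKO label. Medians of these 3 lists were 0.44, 0.38 and -0.24. Of all genes, 50.3% were above 0, and edgeR called 0.279% higher. At an unadjusted p under 0.05, 7.65% of all genes were higher and 6.47% lower. All 11 spermatogonial markers were also above 0, 3 of them at an unadjusted p under 0.05. Of 9 round spermatid markers 4 were above 0 and 5 below. No marker of the Sertoli, Leydig and elongating spermatid lists was at 0 counts in any library. The part of the marker lists in the values of the members was not tested.

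**Figure D5:**
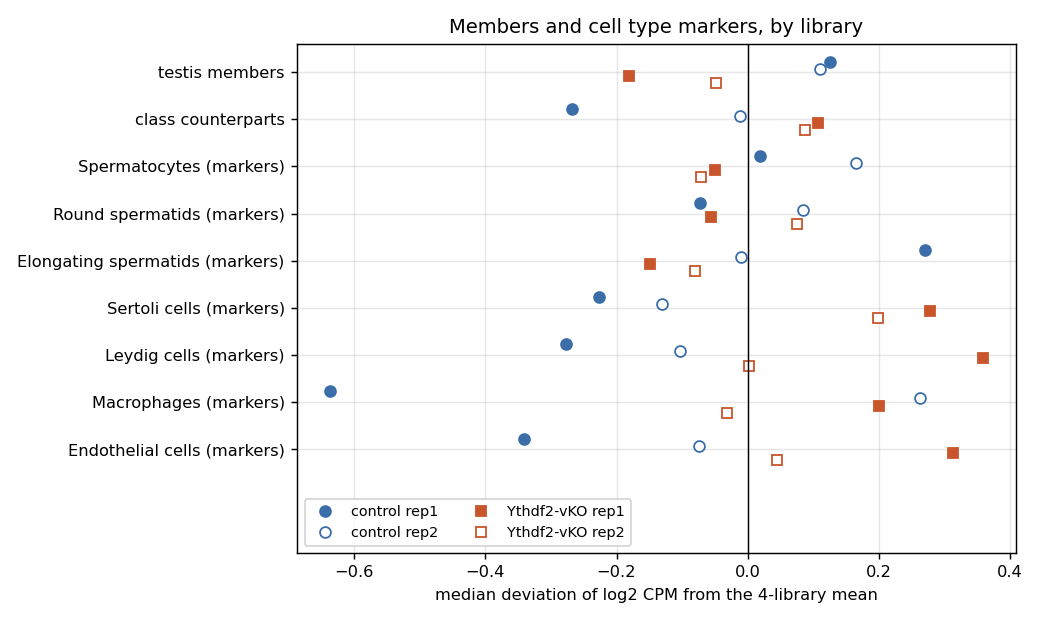
Median deviation of log2 CPM from the 4-library mean (horizontal axis) for the testis members, their class counterparts and 7 lists of cell type markers, with circles for control and squares for libraries labelled Ythdf2-vKO. Testis members lie at 0.13 and 0.11 in control and -0.18 and -0.05 in the vKO libraries, and Sertoli markers at -0.23 and -0.13 against 0.28 and 0.20.

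The calls depended on the test and on control libraries. Across the 21132 genes tested, GC content and log2 fold change had a Spearman rho of 0.255, and across the 50 members 0.208, as a description, since genes of the same libraries are not independent. With library totals in place of TMM scaling, edgeR called Gstp1 (adjusted p 0.0248) and Gstm7 (adjusted p 0.0228), where 1.03% of all genes were called and 0.857% were called higher. At an adjusted p under 0.1 with TMM scaling the same pair of members passed, against 0.667% of all genes on the higher side. Without control replicate 2 edgeR called 10 members higher and 1 lower, against 2.53% and 2.39% of all genes (4.93% together), and without control replicate 1 it called 2 higher and 2 lower, against 4.72% and 2.09% (6.82% together). Those fits leave 1 control library, which is assumed to vary like the other group. Without either vKO library 0 members were called. Gstp1, Gstm7 and Txndc2 kept their direction in each of these fits. Their groups do not overlap, so leaving out 1 library could not change their direction, and this is not a test of it. Their log2 fold changes ran from 0.71 to 0.91, from 0.56 to 0.71 and from -0.50 to -0.42 over the 4 fits that each left out a library. Leaving out 1 library moved other named members by over 1.5 times. With control replicate 1 left out, the log2 fold change was 0.07 for Gstm2, 0.09 for Gsta4 and 0.26 for Txnl1, against 0.42, 0.63 and 0.53 with control replicate 2 left out. Txnrd1 had 0.20 and 0.013 in the same fits, and Txn2 had -0.15 and -0.052. Txndc8 was at -0.12 without control replicate 2. Without vKO replicate 1 the values were -0.12 for Txndc8, -0.11 for Gstt4, -0.13 for Prdx6b and 0.06 for Txnrd1.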

How the data were processed

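Gene expression was measured in 4 testis libraries, in groups of 2. The authors deposited raw counts per gene, and the submitters' processing notes name HISAT2 2.1.0 and HTSeq 0.6.1p1. Genome build, annotation, strand setting and treatment of reads with several matches are not given in the sources used here. Per the file headers, the authors also deposited a mean normalized count (a signal), a log2 fold change and its SE, a test statistic (a score) and p-values, with the column names of DESeq2. Recomputing the deposited mean differed by at most 4.9e-10 of its value. Every gene of the table had at least 10 counts in total.

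Counts were tested with edgeR 4.0.16 (limma 3.58.1, R 4.3.3): TMM scaling, filterByExpr, a quasi-likelihood fit with robust estimation and genotype as the only term, a two-sided F test, Benjamini-Hochberg adjustment over 21132 genes, and a call at an adjusted p under 0.05. The procedure was tested on simulated data. Fold changes used a prior count of 0.125. The SE is the absolute log2 fold change divided by the square root of F. CPM are TMM-scaled. Replicates differed beyond sampling noise (chi-square per degree of freedom 19.4 and 7.84), and none were merged. A DESeq2 1.42.0 Wald test, other scalings and filters, a GC offset, a replicate block and leaving out each library were alternatives, as was summing near-identical copies, chosen after seeing the data. Gene positions, exon lengths, transcripts and GC content came from GENCODE M21 (GRCm38), which held 25241 of the table's genes.

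The named members are the testis members, their counterparts, those at an unadjusted p under 0.05, the highest level and largest log2 fold change of each class (among members with a mean of at least 1 CPM), and those not tested or at the floor. Members, gene lists and marker lists were chosen with earlier results of these data known. Of the 11 marker lists, further medians were 0.22 (spermatogonia), -0.13 (spermatocytes), -0.02 (round spermatids), -0.05 (peritubular myoid cells), 0.08 (macrophages) and 0.37 (endothelial cells). The erythrocyte list had 0.76, and the epididymis list had 1 tested gene, Rnase10, at -0.48.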

Additional observations from a re-analysis of the deposited data

How the results depend on the processing

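Over the whole table edgeR called 59 genes higher and 24 lower. With no filter beyond 1 count it called 87 and 35, and with at least 10 counts in every library 73 and 30. With library totals alone the counts were 181 and 37, with the GC offset 89 and 67, by the DESeq2 Wald test 137 and 80, and without robust estimation 15 were lower. Leaving out 1 library gave between 30 and 1048 higher and between 5 and 523 lower. Members called were 0 in both directions. There were 2 higher with library totals alone, with no filter and at an adjusted p under 0.1, 1 higher with at least 10 counts in every library, and 2 higher and 1 lower by the DESeq2 Wald test. Leaving out 1 library gave 0 to 10 higher and 0 to 2 lower. The DESeq2 size factors, the fit without robust estimation, the GC offset and the summed copies left both counts at 0. The labels do not say what the replicate numbers mark, and deviations of same-numbered libraries correlated at 0.0618 across genes over only 2 pairs, and no pairing was assumed. A replicate block gave 627 higher and 390 lower genes, and 3 members higher and 2 lower. Combined with the GC offset, the replicate block gave 280 and 301 genes, and 4 members higher and 2 lower.

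The median of all members was 0.063 with library totals alone and -0.045 to 0.067 without 1 library. That of the testis members was -0.28 to -0.13 and that of the counterparts 0.093 to 0.39 without 1 library. With library totals alone the medians were 0.23 for the NRF2 list, 0.21 for selenoprotein synthesis, 0.042 for dismutases, catalase and sulfoxide reductases and -0.011 for glutaredoxins and thioredoxin-fold genes. With the GC offset the last pair were 0.034 and -0.15. Without 1 library the lists ran from -0.058 to 0.19 (glutathione supply), 0.048 to 0.32 (membrane transferases), -0.20 to -0.045 (glutaredoxins), -0.0017 to 0.059 (dismutases), 0.077 to 0.23 (NRF2) and 0.035 to 0.20 (selenoprotein synthesis). Among named members, Txnrd2 changed sign with library totals alone (0.047) and ran from -0.12 to 0.070 without 1 library, and Txnrd3 changed sign with the GC offset (-0.029) and with that offset plus the replicate block (-0.020), and ran from -0.17 to 0.22. The other named members kept their sign under every alternative. The causes were not tested.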
